A study of Mus musculus x Rattus norvegicus with 2 samples.

Results

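Pericytes were taken from dissociated embryonic lung as the mouse cells whose droplet barcodes carried at least 4 unique molecular identifiers (UMIs) summed over Higd1b, Cox4i2, Cspg4 and Kcnk3. Barcodes needed at least 500 genes, at most 20% of UMIs from mitochondrial genes and at least 90% of UMIs on mouse features. Epcam could have no more than 2 UMIs, nor could Cdh5 and Pecam1 together. The gate kept 1274 of 16268 mouse cells, out of 22047 deposited barcodes. There were 637 in each library, which was 7.19% of 8854 mouse cells in the mutant library (exact 95% binomial interval 6.66% to 7.75%) and 8.59% of 7414 mouse cells in the control library (7.96% to 9.25%).

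The mutant library was lung of mouse origin grown in a rat embryo with genotype Nkx2-1-/-. The control library was a lung of mixed mouse and rat origin from a wt rat host. Both lungs were taken at E20.5 (embryonic day) from chimeras of mouse and rat, with strains C57BL/6 and SD named for both. Each group was 1 library, and no source used here gives the number of embryos behind a library. No difference between the libraries therefore has a replicate error, and no test was made. The mouse cells of either lung carried the donor's genome, so the Nkx2-1 genotype is that of the rat host and not of the pericytes described here. EGFP UMIs were found in 99.7% of the mutant pericytes and 100% of the control ones.

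Pericytes are mural cells that lie on capillaries inside the basement membrane they share with the endothelium. Endothelial PDGF-B recruits them through the receptor Pdgfrb, Notch3 maintains them on the vessel, and they send angiopoietin-1 back to the endothelium. Nitric oxide from the endothelium acts in them on soluble guanylate cyclase, whose product cyclic GMP relaxes the cell. Lung pericytes are known for Higd1b and for Cox4i2, a lung-rich isoform of a subunit of cytochrome c oxidase.

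The deposited matrices held 103627303 UMIs in the mutant library and 123047433 in the control library. The median pericyte had 11719 UMIs in the mutant library and 10719 in the control library. The file headers name Cell Ranger 7.0.1 for the mutant and 6.0.1 for the control. From version 7 on that program counts intronic reads by default. Which setting was used is not given in the sources used here. The libraries shared 47 barcodes, none of them on a pericyte. RNA of other cell types was found in droplets that should lack it. At least 1 UMI of Sftpc, the surfactant gene of alveolar type 2 cells, was found in 90.4% of mutant and 87.5% of control endothelial cells, with medians of 8522.5 and 11166 UMIs.

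The sum over the gate genes had a low and a high range. In the mutant library 293 cells had a sum of 3 and were left out, 170 had a sum of 4 and were kept, only 24 had a sum of 9 to 12, and 196 had 20 or more. In the control library the same counts were 178, 86, 62 and 216. Cells at 4 continued the slope of cells at 0 to 3, and a separate group lay above it. Across the threshold the values did not step: Notch3 was at 28.7 CPM (mouse UMIs scaled to a library of 1000000) in cells at 4 and 19.8 CPM in cells at 3 in the mutant library, and at 43.9 and 36.3 CPM in the control library. Another 36 mutant and 185 control cells had the sum but were left out for Epcam or endothelial UMIs.

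**Figure D1:**
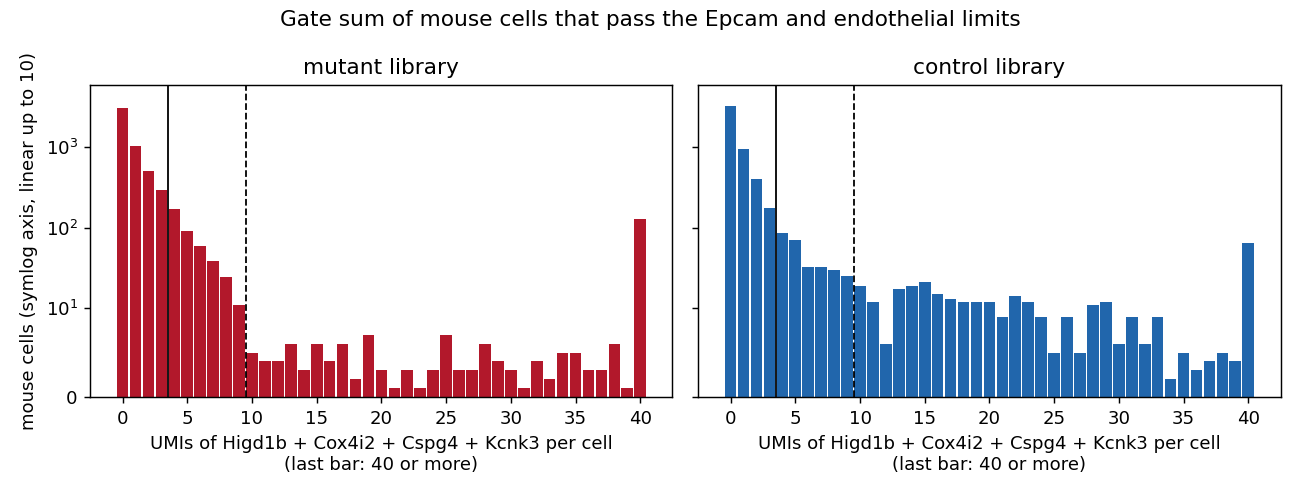
Number of mouse cells (vertical axis, linear up to 10 and logarithmic above) by the UMI sum of the 4 gate genes (horizontal axis, last bar 40 or more), mutant library left and control library right. The solid line is the gate at 4 and the dashed line the sum of 10 above which the high group lies: 243 mutant and 362 control pericytes were right of it.

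Members were therefore described in 3 groups, a division made after the sums and marker levels had been seen. Core pericytes had a sum of at least 10 and stayed below the smooth muscle gate, which was at least 10 UMIs over Actg2, Myh11 and Cnn1. They numbered 199 in the mutant library and 309 in the control library, or 2.25% and 4.17% of mouse cells. High-sum members that also passed the smooth muscle gate numbered 44 and 53. Low-sum members, with 4 to 9 UMIs, numbered 394 and 275, which was 61.9% of mutant and 43.2% of control members. Of these, 109 mutant and 90 control cells passed the smooth muscle gate as well.

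The gate genes behind the sum differed between the groups, which is a description since the sum chose them. Kcnk3, a background potassium channel, gave 66.5% of the gate UMIs of low-sum members in the mutant library and 44.7% in the control library. Higd1b, a mitochondrial inner membrane protein, and Cox4i2 together gave 14.4% and 44.4%. In the control library Kcnk3 alone thus gave about as much as that pair. In core pericytes Kcnk3 gave 4.13% and 8.11%, and Higd1b with Cox4i2 gave 89.2% and 85.4%. Kcnk3 was also found in smooth muscle, at 87.6 CPM in the mutant library and 79.9 CPM in the control library. Smooth muscle left out the cells past the pericyte gate, which limits its Kcnk3 level.

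Markers outside the gate bore out the name pericyte for the core. Low-sum members were mixed, and those of the mutant library mostly carried other markers. Notch3, which the gate did not use, was at 477 CPM in mutant core pericytes (exact 95% Poisson interval 450 to 506) and 254 CPM in control core pericytes (238 to 271). Low-sum members had 54.3 and 88.5 CPM. Counted per cell, 94.0% of mutant and 90.3% of control core pericytes had a Notch3 UMI. The share was 21.6% and 41.8% of low-sum members, and 2.71% and 7.78% of endothelial cells, whose level was read as the background. These intervals cover counting error only.

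Low-sum members held RNA of myofibroblasts, the mesenchymal cells of the forming septa. The list Pdgfra, Tgfbi, Stc1, Hhip and Fgf18 summed to 3616 CPM in mutant and 1552 CPM in control low-sum members, against 205 and 78.1 CPM in the core. Stc1 did not follow the sum in the mutant library, at 17.8 CPM in low-sum members and 57.9 CPM in the core. Hhip, an inhibitor of hedgehog signalling, was at 1445 and 495 CPM in low-sum members and at 85.8 and 8.10 CPM in the core. Hhip UMIs were found in 85.5% of mutant and 49.8% of control low-sum members, against 12.1% and 5.18% of core pericytes. In the control library pericyte genes reached more low-sum members than smooth muscle cells: Pdgfrb was found in 52.0% of low-sum members and 28.8% of smooth muscle cells there, and Ndufa4l2 in 58.5% and 17.8%. The mutant library was mixed. Pdgfrb was found in 47.5% and 42.6% there and Ndufa4l2 in 71.1% and 48.8%, but Mcam in 22.3% and 35.5% and Trpc6 in 14.2% and 25.2%. Hhip did not step at the threshold either: at a sum of 4 it was at 1442 CPM in the mutant library and 455 CPM in the control library, and at a sum of 3 at 1242 and 346 CPM.

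The summed level of 25 pericyte genes outside the gate followed the same division. It was 13514 CPM in mutant and 8343 CPM in control core pericytes. It came to 1730 and 2118 CPM in low-sum members, against 1705 and 1070 CPM in smooth muscle, so the low-sum level was near that of smooth muscle in the mutant library and above it in the control library. High-sum members past the smooth muscle gate were in between, with 8594 CPM in the mutant library and 3755 CPM in the control library. Those cells had the highest Acta2, the smooth muscle actin, at 3054 and 8734 CPM, and Notch3 at 536 and 183 CPM. The results below are for core pericytes unless all members are named.

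**Figure D2:**
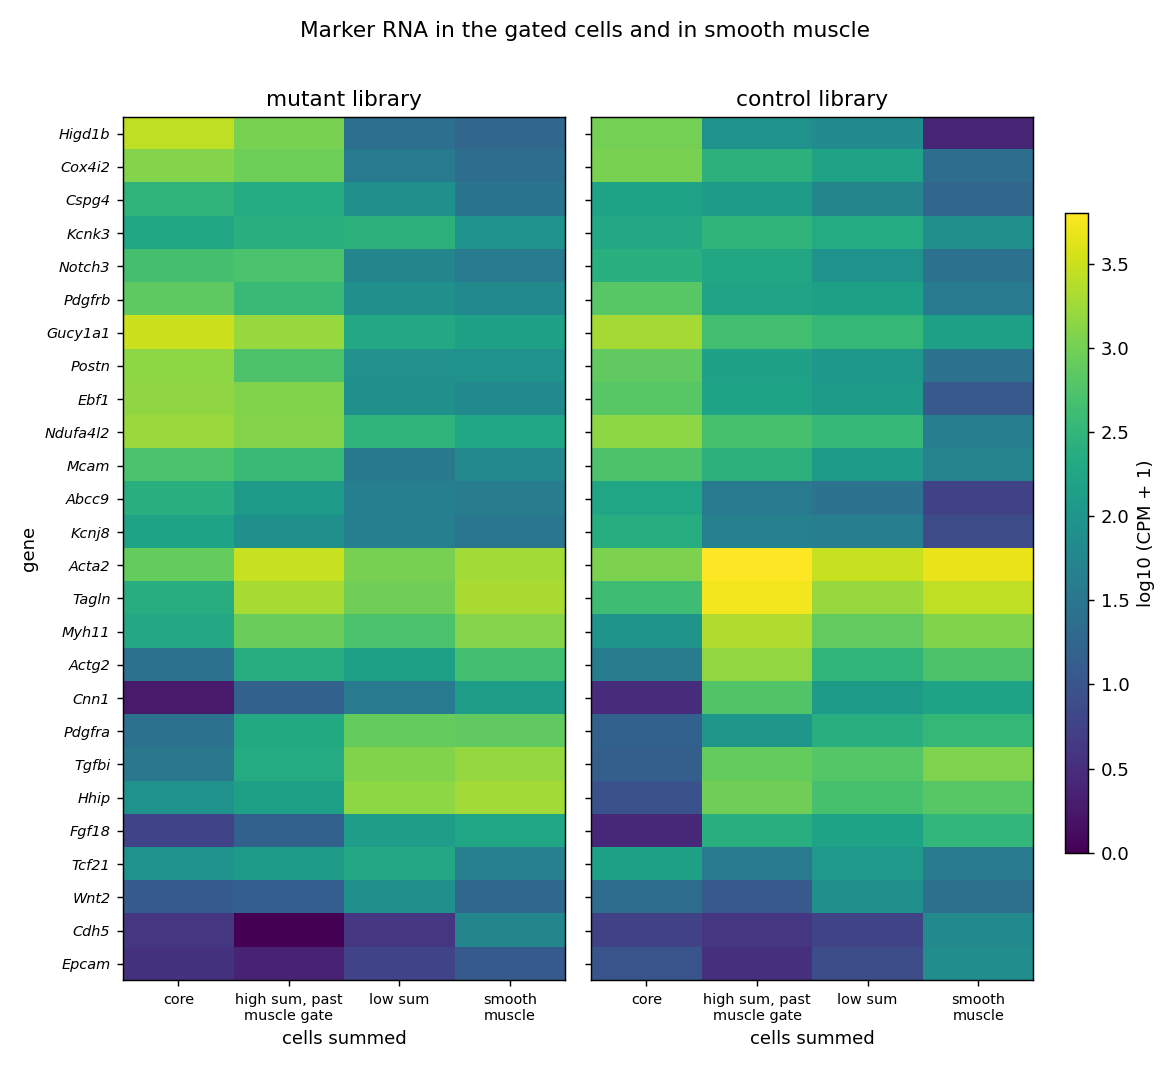
RNA level of 26 genes (rows) in summed cells of each kind (columns), as log10 of CPM + 1 on a shared colour scale, mutant library left and control library right. Gate genes and Notch3 to Kcnj8 are bright in the core column of both libraries, and Pdgfra, Tgfbi and Hhip are bright in the low-sum and smooth muscle columns.

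Endothelial and immune markers were at low levels in the core. Fibroblast and adventitial markers were not low beside every other group, and red cell RNA was not low in the control core. Endothelial markers (Cdh5, Pecam1, Cldn5, Kdr, Emcn) summed to 23.2 CPM in mutant and 32.4 CPM in control core pericytes, with Cdh5 and Pecam1 capped by the gate. Immune markers summed to 32.6 and 5.21 CPM. Alveolar fibroblast markers (Tcf21, Wnt2, Npnt, Limch1, Inmt) summed to 256 and 255 CPM, against 959 and 407 CPM in low-sum members. In smooth muscle they summed to 299 and 132 CPM, so the control core lay above smooth muscle. Epithelial markers summed to 509 and 251 CPM, nearly all of it Sftpc at 462 and 222 CPM. A Sftpc UMI was found in 89.9% of mutant and 86.1% of control core pericytes, which is close to the endothelial share above. Adventitial markers summed to 208 and 191 CPM, against 511 and 180 CPM in mouse cells outside both gates. Globin and Alas2 RNA summed to 130 CPM in mutant and 1429 CPM in control core pericytes, against 462 and 526 CPM in smooth muscle.

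Smooth muscle was the mouse cells that passed the smooth muscle gate and not the pericyte gate, 242 in the mutant library and 264 in the control library. By its markers this comparator was not smooth muscle alone, and most of its cells carried myofibroblast RNA. The myofibroblast list summed to 4354 CPM in its mutant cells and 2481 CPM in its control cells. Hhip UMIs were found in 94.6% of its mutant and 92.4% of its control cells, and Pdgfra UMIs in 81.4% and 82.6%. The name smooth muscle is that of the gate. The limits on Epcam and endothelial UMIs were set for pericytes only. Endothelial markers summed to 297 and 240 CPM in smooth muscle, and epithelial markers to 1397 and 2501 CPM, both above the core values. Their part in the genes lower in core pericytes was not tested. Both sides of each comparison came from 1 library, so its read counting was shared. Differences are given as log2 of the ratio of CPM + 10, and past 2-fold means a log2 difference of at least 1. Among 9927 genes with at least 10 CPM in either sum in the mutant library, 5.82% were higher past 2-fold in core pericytes and 8.55% lower. Of 9657 in the control library 3.98% were higher and 6.97% lower. Over all members these shares were 2.43% and 1.33% in the mutant library, and 2.16% and 1.89% in the control library.

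The genes highest in core pericytes over smooth muscle in both libraries were mostly genes of signalling, adhesion and matrix. By the smaller difference of the libraries they included Pdzd2, Itm2a, Ebf1, Rasgrp2, Postn, Gucy1a1, Cpa1, Nostrin, Mapt, Cdh2, Pdgfrb, Itga1, Ndufa4l2 and Fam162b. Pdzd2, a PDZ-domain scaffold, was at 2203 CPM in core pericytes against 38.2 CPM in smooth muscle of the mutant library (log2 difference 5.52), and at 483 against 9.05 CPM in the control library (4.69). Itm2a, a transmembrane protein, was at 1171 against 19.3 CPM and at 1117 against 37.3 CPM, so its core level was nearly the same in both libraries. Rasgrp2, an exchange factor for the small GTPase Rap1, was at 472 against 17.7 CPM and at 329 against 11.96 CPM. Mapt, the microtubule protein tau best known from neurons, was at 400 CPM in mutant and 172 CPM in control core pericytes, with 15.1 and 7.29 CPM in smooth muscle. Cpa1, a carboxypeptidase known from the pancreas, was at 142 and 113 CPM in the core. In smooth muscle it had 0 UMIs in the mutant library, which allows up to 0.963 CPM, and 0.292 CPM in the control library.

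The genes lowest in core pericytes were Tgfbi, Igf1, Hhip, Nnat, Zfp536, Pdgfra, Crh, Htra1, Lgr6, Actc1, Robo2, Map1b, Fgf18, Cdh4 and Pdlim3. Igf1, the growth factor, was at 25.7 CPM in core pericytes against 1048 CPM in smooth muscle of the mutant library, and at 10.7 against 1053 CPM in the control library. Tgfbi, a secreted matrix protein, was at 31.7 against 1584 CPM and at 13.0 against 1152 CPM. Crh, the corticotropin-releasing hormone, was at 17.2 against 379 CPM and at 0.868 against 552 CPM. Pdgfra, Tgfbi, Hhip and Fgf18 are also on the myofibroblast list, whose part in these differences was not tested. The last gene of that list, Stc1, a secreted glycoprotein, was higher in core pericytes (1.28 and 1.95).

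**Figure D3:**
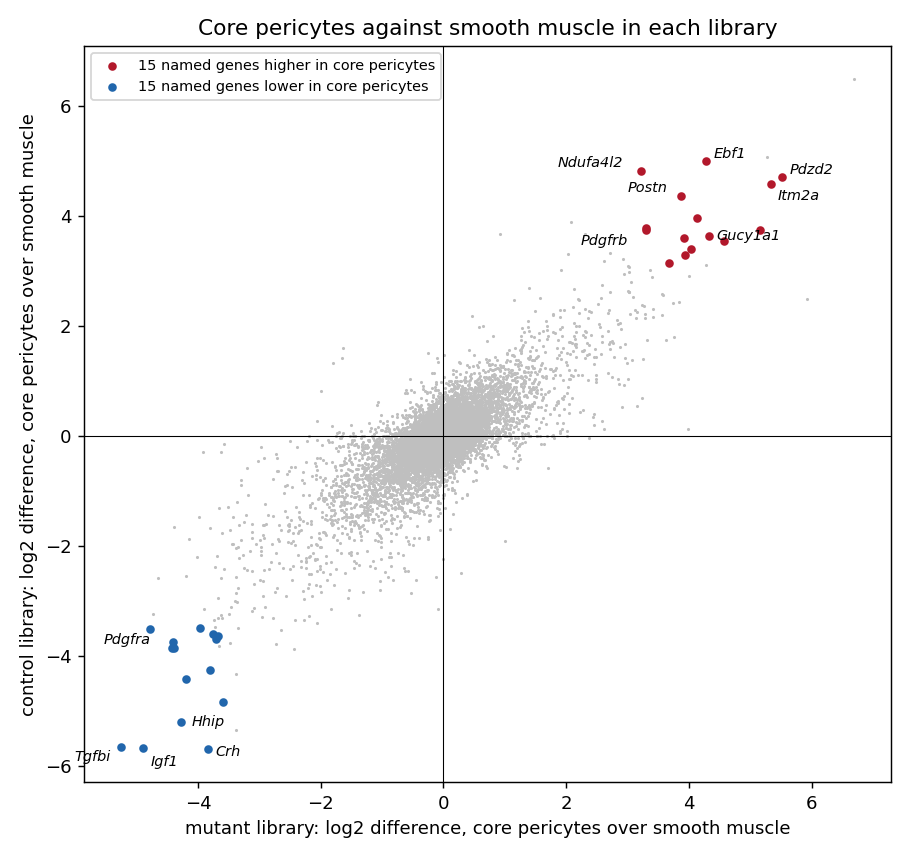
Each point is a gene measured in core pericytes or smooth muscle, with its log2 difference of CPM + 10, core pericytes over smooth muscle, in the mutant library (horizontal) and in the control library (vertical). The 15 genes that the ranking picked on either side (coloured) lie in the upper right corner, where Pdzd2 has 5.52 and 4.69, and in the lower left corner, where Tgfbi has -5.26 and -5.66.

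Among the signals that hold pericytes on vessels, Pdgfrb, Notch3 and Angpt1 were high in the core, while the PDGF and angiopoietin lists as wholes were not. Pdgfrb was at 731 CPM in core pericytes against 65.5 CPM in smooth muscle of the mutant library, and at 638 against 37.6 CPM in the control library. Its fibroblast counterpart Pdgfra ran the other way, at 24.9 against 738 CPM and at 14.2 against 340 CPM. Notch3 was at 477 against 35.9 CPM and at 254 against 26.0 CPM. Smooth muscle left out the cells past both gates, 153 in the mutant library and 143 in the control library. Of those with high sums, 93.2% of mutant and 81.1% of control cells had a Notch3 UMI. A Heyl UMI was found in 86.4% and 69.8% of them. The part of this exclusion in the Notch differences was not tested. Of 17 Notch genes, 8 were measured in the mutant library and 7 of them were higher past 2-fold with a median log2 difference of 1.91. In the control library it was 6 of 10 with a median of 1.73, and the median over all measured genes was -0.05 in both libraries. The Notch targets Heyl and Nrarp were among them: Heyl had log2 differences of 1.92 and 3.01, and Nrarp, a feedback inhibitor, 2.58 and 2.73. Hes1, a repressor induced by Notch, was higher past 2-fold in the mutant library (1.96) and not in the control library (0.72). The ligands Jag2, Dll1 and Dll4 were under 10 CPM in the core of both libraries. Angpt1, the ligand that endothelial cells receive from pericytes, was at 408 against 48.8 CPM and at 88.8 against 13.1 CPM. Of 6 PDGF ligands and receptors measured in the mutant library 2 were higher and 2 lower past 2-fold, and of 5 in the control library 1 was higher and 2 lower, with medians of -0.66 in both. Angiopoietin genes had 1 higher and 1 lower of 5 in the mutant library, and 2 higher and 0 lower of 6 in the control library, with medians of 0.07 and -0.27.

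Of the 25 pericyte genes outside the gate, 24 were measured in the mutant library and 17 of these were higher past 2-fold than in smooth muscle. Of 21 measured in the control library 17 were higher. The median log2 differences were 2.25 and 2.48. The exceptions included Rgs5, a regulator of G-protein signalling widely used as a pericyte marker. It was at 105 CPM in core pericytes against 136 CPM in smooth muscle of the mutant library (-0.34), and at 78.1 against 219 CPM in the control library (-1.37). Des, an intermediate filament protein of muscle and pericytes, and P2ry14, a receptor for UDP-sugars, did not pass 2-fold in either library. Kcnj8 and Abcc9, the pore and the regulatory subunit of one ATP-sensitive potassium channel, were both higher, with log2 differences of 2.08 and 2.30 in the mutant library and 3.88 and 3.67 in the control library.

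A pair of respiratory chain paralogs had opposite levels in pericytes and smooth muscle. Ndufa4 is a subunit of cytochrome c oxidase, and Ndufa4l2 is its hypoxia-induced paralog. Ndufa4l2 (chr10:127514967-127517154, plus strand, mm10) was at 1664 CPM in core pericytes (1612 to 1717) against 170 CPM in smooth muscle (156 to 185) of the mutant library, and at 1441 CPM (1401 to 1482) against 41.7 CPM (35.2 to 49.2) in the control library. Ndufa4 (chr6:11900292-11907497, minus strand) was at 35.2 CPM (28.0 to 43.6) against 383 CPM (361 to 405), and at 119 CPM (108 to 131) against 702 CPM (675 to 731). The coding sequences of the pair from the GENCODE vM21 transcripts are shown because the paralogs had opposite levels, and because reads of near-identical copies could be misassigned. Capitals mark the longest run of bases that both share, 28 bases, and 61.7% of 264 aligned columns were identical. The coding sequences of this pair were thus not near-identical, and misassignment itself was not tested.
Ndufa4: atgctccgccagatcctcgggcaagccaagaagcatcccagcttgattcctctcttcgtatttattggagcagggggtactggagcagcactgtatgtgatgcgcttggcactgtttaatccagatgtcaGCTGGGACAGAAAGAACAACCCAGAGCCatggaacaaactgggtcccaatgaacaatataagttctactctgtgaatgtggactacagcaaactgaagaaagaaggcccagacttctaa
Ndufa4l2: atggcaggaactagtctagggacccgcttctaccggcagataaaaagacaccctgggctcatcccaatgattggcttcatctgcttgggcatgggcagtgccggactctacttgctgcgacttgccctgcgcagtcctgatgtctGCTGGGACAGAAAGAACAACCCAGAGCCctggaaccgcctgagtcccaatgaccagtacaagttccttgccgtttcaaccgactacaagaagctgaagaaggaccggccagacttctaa

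Other genes of oxygen handling did not all move with this pair. Epas1, the hypoxia-inducible factor of lung vessels, was at 215 CPM in core pericytes against 17.7 CPM in smooth muscle of the mutant library, and at 137 against 7.59 CPM in the control library. Cox4i1, the general isoform beside which Cox4i2 is set, differed by 0.17 and -0.04 on the log2 scale. Hif1a and Ldha stayed within 0.5 of no difference in both libraries, and Egln3 and Bnip3, both induced by hypoxia, were lower past 2-fold in both. Of 13 measured genes of this list 3 were higher and 3 lower past 2-fold in the mutant library, and 2 were higher and 3 lower in the control library.

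The nitric oxide and cyclic GMP pathway was high in the core. Gucy1a1 and Gucy1b1, the subunits of soluble guanylate cyclase, were at 3224 and 1691 CPM in core pericytes against 151 and 117 CPM in smooth muscle of the mutant library. In the control library they were at 1962 and 704 CPM against 150 and 124 CPM. Pde5a, the phosphodiesterase that breaks down cyclic GMP, was at 2833 against 434 CPM and at 849 against 219 CPM. Of 15 measured genes of cyclic GMP and contraction control, 8 were higher and 1 lower past 2-fold in the mutant library. In the control library it was 6 higher and 1 lower. The medians were 1.20 and 0.65. Ppp1r14a, the myosin phosphatase inhibitor, was higher in both (1.43 and 1.16).

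Receptors for vasoactive hormones differed in both directions. Of 11 measured in the mutant library 3 were higher and 3 lower past 2-fold, and of 9 in the control library 2 were higher and 3 lower. Agtr1a, the angiotensin II receptor, was at 152 CPM in core pericytes against 3.53 CPM in smooth muscle of the mutant library, and at 54.1 against 0.875 CPM in the control library. Ednrb, the endothelin B receptor, was at 78.0 against 910 CPM and at 18.8 against 1168 CPM. Ednra, the endothelin A receptor, was at 746 against 267 CPM and at 309 against 154 CPM, a log2 difference of 1.45 in the mutant library and 0.96 in the control library. Ramp1, a partner of the receptor for calcitonin gene-related peptide, was lower past 2-fold in both libraries. Ion channels were mixed as well, with 5 higher and 4 lower of 14 in the mutant library and 3 higher and 3 lower of 11 in the control library. The cation channel Trpc6 was at 639 against 50.7 CPM and at 57.9 against 3.79 CPM, and Kcnma1, the large-conductance potassium channel, was lower past 2-fold in both.

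Contractile genes were lower in the core, which the removal of cells with Actg2, Myh11 and Cnn1 sets in part. Acta2 was at 789 CPM in core pericytes against 1881 CPM in smooth muscle of the mutant library, and at 1137 against 4929 CPM in the control library. Tagln, an actin-binding protein of contractile cells, was at 236 against 2080 CPM and at 414 against 2731 CPM. Of 15 measured genes beside the smooth muscle gate genes, 4 were lower past 2-fold in the mutant library and 8 in the control library, with medians of -0.41 and -1.15. Cald1, an actin regulator, and Des did not follow, with log2 differences between 0.08 and 0.61.

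Matrix genes differed within their lists. The main collagen chains of the basement membrane were higher in the core: Col4a1 was at 3355 CPM in core pericytes against 1612 CPM in smooth muscle of the mutant library, and at 2132 against 994 CPM in the control library. Col4a2 and Nid2, a linker of laminin and collagen, were also higher past 2-fold in both. Others on the list were lower, among them Lama5, Col15a1 and, in the control library only past 2-fold, Lamb2. The list held 6 higher and 4 lower of 18 measured in the mutant library, and 4 higher and 4 lower of 17 in the control library. Elastic fibre genes were among the lower ones of the interstitial list, which held 8 lower and 1 higher of 19 in the mutant library and 6 lower and 2 higher in the control library. Eln, elastin, was at 1044 against 7984 CPM and at 493 against 2714 CPM, and Lox, its crosslinking enzyme, was at 43.3 against 406 CPM and at 37.0 against 451 CPM. Postn, a matrix protein set on the same list, was the counterexample, at 1412 against 86.7 CPM and at 740 against 26.6 CPM.

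Of 21 measured transcription factors 4 were higher and 2 lower past 2-fold in the mutant library, and 9 higher and 3 lower in the control library, with medians of 0.22 and 0.56. Ebf1, a helix-loop-helix factor of mesenchymal and B cells, was at 1464 CPM in core pericytes against 65.8 CPM in smooth muscle of the mutant library, and at 640 against 10.5 CPM in the control library. Foxs1 and Nr2f2 were also higher past 2-fold in both, Tbx3 lower in both, and the lung mesenchyme factors Foxf1, Tbx4 and Tbx5 differed by less than 0.4. Of 13 measured imprinted genes 5 were higher and 2 lower past 2-fold in either library. Dlk1, an imprinted Notch-related membrane protein, was at 990 against 152 CPM and at 2538 against 270 CPM. Gnas, the stimulatory G-protein subunit, was at 8893 against 1665 CPM and at 8409 against 2370 CPM. Mest, Igf2r and Ndn were higher past 2-fold in both libraries, and Grb10, an adaptor that restrains growth signalling, was lower in both.

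Cell cycle genes lay above smooth muscle in summed RNA, mostly by less than 2-fold. All 12 measured G2 and M phase genes were above smooth muscle in the mutant library, 4 of them past 2-fold, with a median log2 difference of 0.82. In the control library 14 of 14 were above it, 8 past 2-fold, with a median of 1.01. S phase genes had medians of 0.53 and 0.66, with 1 past 2-fold in the mutant library and 0 in the control library. The share of cells with a Mki67 UMI did not follow in the mutant library, at 11.1% of core pericytes and 25.2% of smooth muscle cells, whereas in the control library it was 49.8% and 39.4%.

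The comparison of the mutant with the control library asks how pericytes of a lung formed in the Nkx2-1-/- host differ from those of a chimeric lung in a wt host. The libraries differed in a property of the counts that must be read first. Genes with 2 kb of intron or less had a median log2 difference of -0.37, mutant over control, and genes with over 200 kb had 1.29. Genes with at most 10 kb of intron held 48.7% of the mouse UMIs of mutant core pericytes and 59.0% of those of control core pericytes. For list counts and for genes whose difference is discussed below, a second value subtracts the median over genes with introns of similar total length and is called intron-adjusted. Of 9529 measured genes, 11.1% were higher past 2-fold in mutant core pericytes and 4.98% lower, which was 1057 against 475 genes. After intron adjustment the shares were 6.46% and 3.84%, or 615 against 366 genes. Over all members 11.4% were higher and 4.56% lower before adjustment, and 5.41% and 3.74% after it.

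**Figure D4:**
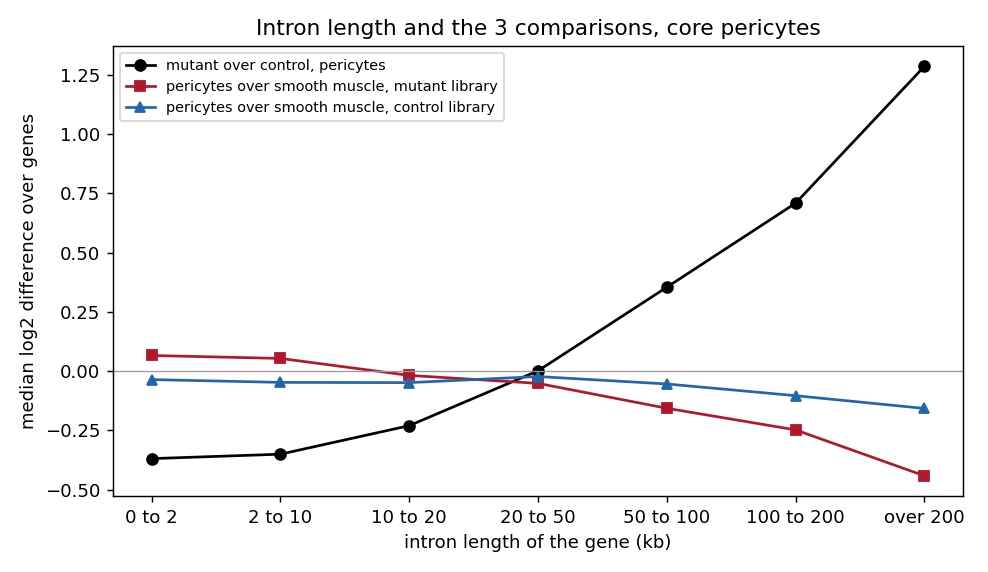
Median log2 difference (vertical) of genes grouped by the intron length of the gene in kb (horizontal), for 3 comparisons of core pericytes. Mutant over control climbs from -0.37 to 1.29, whereas core pericytes over smooth muscle stays between 0.07 and -0.44 within the mutant library and between -0.02 and -0.16 within the control library.

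Proliferation genes were lower in the mutant pericytes. All 14 G2 and M phase genes were lower past 2-fold, with a median log2 difference of -2.16 and an intron-adjusted median of -1.89. Ube2c, an ubiquitin-conjugating enzyme of mitotic exit, was at 31.7 CPM in mutant and 422 CPM in control core pericytes (-3.04 adjusted). Mki67, the proliferation marker, was at 84.5 CPM (73.1 to 97.1) in mutant and 318 CPM (300 to 338) in control core pericytes (-1.57 adjusted). Of the S phase genes 10 of 12 were lower past 2-fold and the other 2 were below 0 as well, with a median of -1.32. After adjustment 6 of 12 were lower past 2-fold and the median was -0.98, and of the replication licensing genes Mcm2 to Mcm7 only Mcm2, Mcm3 and Mcm5 remained past it.

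The share of cycling cells gave the same order. A Mki67 UMI was found in 11.1% of mutant and 49.8% of control core pericytes. With each cell thinned to 3000 UMIs the shares were 7.22% of 194 mutant cells (4.001% to 11.8%) and 33.99% of 303 control cells (28.7% to 39.6%). The low-sum members showed it too, with thinned shares of 6.15% and 31.4%. Smooth muscle and endothelial cells had the same order: thinned shares were 8.68% of mutant and 19.5% of control smooth muscle, and 17.9% of mutant and 46.1% of control endothelial cells. Whether it was larger in pericytes was not tested. The replication-dependent histones Hist1h2ap and H2ac8 were at 16.7 and 23.6 CPM in mutant core pericytes, against 1383 and 463 CPM in control core pericytes. Histone genes are near-identical copies, so their single values are uncertain.

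Stress and short-lived transcripts differed in opposite directions. Hspa1a and Hspa1b, inducible heat shock proteins from near-identical genes whose reads can be split between them, were at 74.6 and 15.01 CPM in mutant core pericytes and at 1211 and 386 CPM in control core pericytes. Ccl2, a chemokine for monocytes, was at 9.01 and 183 CPM, and was at 0 UMIs and 5.25 CPM in smooth muscle of the same libraries. Of 14 immediate early genes 12 were higher in mutant core pericytes, 5 of them past 2-fold, with a median of 0.50 and an intron-adjusted median of 0.76. Fos, Junb and Btg2 were among the 5, and Fos was at 1251 and 577 CPM. Both heat shock and immediate early genes are known to respond to tissue dissociation, and smooth muscle of the same libraries showed the same directions, with Hspa1a at 51.0 and 1104 CPM and Fos at 2571 and 1202 CPM. The part of dissociation in these differences was not tested.

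Among genes with at most 10 kb of intron, those highest in mutant over control core pericytes were Rgs4, Klf2, Tubb4a, Apold1, Mt1, the feature named Mir703, Clec2d, Klf4, Apoe and Adamts4. Rgs4, a regulator of G-protein signalling, was at 102 CPM in mutant and 13.0 CPM in control core pericytes, with 2.57 and 5.84 CPM in smooth muscle. Klf2, a transcription factor known for its induction by flow in endothelium, was at 724 and 143 CPM, with 431 and 95.4 CPM in smooth muscle. Their adjusted differences were 2.64 and 2.66. Apold1, a vascular early-response gene, was at 168 and 29.2 CPM, with 4.49 and 1.75 CPM in smooth muscle. Mt1, a metal-binding metallothionein, was at 697 and 153 CPM, with 93.4 and 50.8 CPM in smooth muscle. Rgs4, Apold1 and Mt1 thus differed less or not at all in the same direction in smooth muscle, and Klf2 by about as much. These differences between cell types were not tested.

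Id1, Id3, Heyl, Dlk1 and Peg3 were lower in mutant core pericytes, while their lists as wholes were not uniformly lower. Of 22 TGF-beta and BMP genes 5 were higher and 2 lower past 2-fold, with a median of 0.16, and after adjustment 2 were higher and 3 lower. Of 13 imprinted genes 1 was higher and 2 lower, and after adjustment 2 and 1. Id1, a dominant-negative helix-loop-helix factor that BMP signals induce, was at 62.6 CPM (52.9 to 73.6) in mutant and 581 CPM (556 to 607) in control core pericytes, an intron-adjusted log2 difference of -2.74. Id3 was at 284 and 1060 CPM (-1.46 adjusted), while Id2 and Id4 differed by 0.03 and 0.40 after adjustment. Smooth muscle showed the same for Id1, at 38.8 and 294 CPM, and for Id3, at 303 and 1000 CPM. Heyl was at 71.6 CPM (61.2 to 83.3) and 209 CPM (194 to 224), an adjusted difference of -1.12. Notch3 was at 477 and 254 CPM (0.77 adjusted). Of 10 measured Notch genes 2, Heyl and Hey1, were lower past 2-fold before adjustment and none was higher. Dlk1 was at 990 and 2538 CPM (-0.97 adjusted) and Peg3, an imprinted zinc-finger gene, at 65.2 and 217 CPM (-1.34 adjusted). Ndufa4 was also lower, at 35.2 and 119 CPM (-1.18 adjusted), while Ndufa4l2 was at 1664 and 1441 CPM.

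The cyclic GMP and ion channel lists lay above 0 in mutant over control core pericytes, and many of their genes have long introns. All 14 measured genes of cyclic GMP and contraction control were above 0, 7 of them past 2-fold, with a median of 1.07 that came to 0.73 after adjustment, with 6 past 2-fold. Gucy1b1 was at 1691 CPM (1638 to 1744) in mutant and 704 CPM (676 to 733) in control core pericytes, or 1.14 after adjustment. Pde5a was at 2833 and 849 CPM, or 1.16 after adjustment. Prkg1, the cyclic GMP-dependent kinase, was at 2461 and 84.5 CPM, but this gene holds over 1 Mb of intron and smooth muscle showed it as well, at 1066 and 50.2 CPM. Trpc6 was at 639 CPM (607 to 673) and 57.9 CPM (50.1 to 66.5), which was 2.48 after adjustment. With cells thinned to 3000 UMIs, Trpc6 was found in 71.1% of mutant and 14.9% of control core pericytes, and in 0.4997% and 0.136% of endothelial cells. Smooth muscle had the same order, with thinned Trpc6 shares of 9.92% in the mutant and 1.53% in the control library. Whether the Trpc6 difference was larger in pericytes was not tested. Of 13 measured ion channels 9 were higher past 2-fold before the adjustment and 4 after it, with medians of 1.61 and 0.51.

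Of 8 measured vasoactive receptors 6 were above 0 and 4 of these past 2-fold, which came to 2 after adjustment. Ramp1 and Tbxa2r, the thromboxane receptor, were the 2 below 0 (-0.30 and -0.32). Agtr1a was at 152 CPM in mutant and 54.1 CPM in control core pericytes, Ednra at 746 and 309 CPM and Ednrb at 78.0 and 18.8 CPM, with adjusted log2 differences of 1.22, 0.94 and 1.66. Angpt1 was at 408 and 88.8 CPM but came to 0.73 after adjustment. The highest genes of any length included Kcnq5, Cmss1, Galnt2l, Prkg1, Sox5, Clstn2, Gphn, Adcy8 and Cacna1c, each with over 200 kb of intron. Galnt2l had 0 UMIs in control core pericytes, which allows up to 0.868 CPM, and 408 CPM in mutant ones. Cmss1 and Gphn had like levels in smooth muscle, for example Cmss1 at 3251 CPM in core pericytes and 2991 CPM in smooth muscle of the mutant library.

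**Figure D5:**
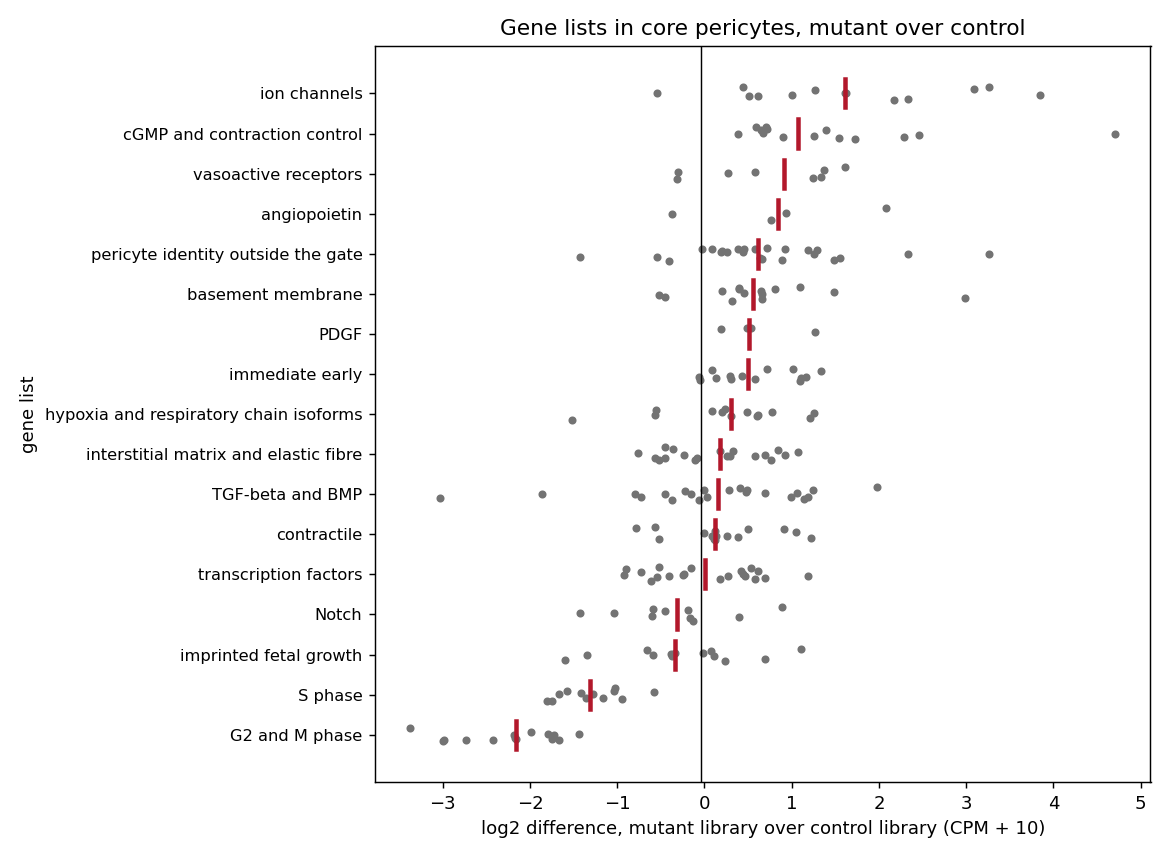
Log2 difference of CPM + 10, mutant over control core pericytes (horizontal), for the measured genes of 17 lists (rows). Grey points are genes, red bars list medians and the black line the median of all measured genes (-0.03): the G2 and M phase genes lie furthest left with a median of -2.16, and the ion channels furthest right with 1.61, which is 0.51 after intron adjustment.

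Pericyte identity genes outside the gate lay mostly above 0 in mutant over control core pericytes. The core cells were not alike in gate sum, with a median of 46 UMIs in the mutant library and 23 in the control library. The part of this in the differences of the list was not tested. Of 24 measured 20 were above 0, with 7 higher and 1 lower past 2-fold both before and after adjustment and medians of 0.61 and 0.60. Pdgfrb, Mcam and Ndufa4l2 of that list differed by -0.03 to 0.21 before adjustment. Of 20 measured transcription factors only Ebf1 passed 2-fold (1.18). After adjustment it did not (-0.17), and Meox2, a homeobox factor of mesenchyme, was lower past it (-1.23). Of 19 genes of interstitial matrix and elastic fibres only Eln passed 2-fold, at 1044 CPM in mutant and 493 CPM in control core pericytes. After adjustment Eln, Postn and Col6a1 were higher past it and Fbn2, a microfibril protein, lower. By the values given above, Eln was also higher in mutant than in control smooth muscle, at higher levels than in the core. The part of this in the core difference was not tested. The 15 measured contractile genes had a median of 0.12, with 2 past 2-fold, among them Lmod1, and 1 of them after adjustment (median 0.27).

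Several differences over all members did not hold in the core. Contractile genes had a median of -0.62 over all members, with 14 of 15 lower in the mutant library. Acta2 was at 1158 CPM in mutant and 3152 CPM in control members, against 789 and 1137 CPM in the core. The mutant members held more low-sum cells and fewer cells of the high group, as given above. Pdgfra was at 525 and 123 CPM over all members and at 24.9 and 14.2 CPM in the core. Actc1, a cardiac actin, was at 46.8 and 471 CPM over all members and at 5.57 and 6.95 CPM in the core. The 14 G2 and M phase genes, Id1, Heyl, Dlk1, Trpc6 and Pde5a differed past 2-fold in the same direction in both sets of cells.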

How the data were processed

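Single-cell RNA-seq of 1 mutant and 1 control library was read from the deposited filtered matrices, which hold UMI counts per gene and barcode for mouse and rat features together. Per the file headers the matrices came from Cell Ranger 7.0.1 (mutant) and 6.0.1 (control). The submitters' processing notes name the builds mm10 and rn6 and Seurat 4.3. No source used here gives the intron setting.

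Counts were summed over the cells of each kind and scaled to a total of 1000000 mouse UMIs (CPM). Log2 differences used CPM + 10, over genes with at least 10 CPM in either sum. Intervals are exact Poisson or Clopper-Pearson 95% intervals and cover counting error only. A count of 0 was read as allowing 3 UMIs. Intron lengths came from GENCODE vM21 (mm10), matched by gene identifier for 99.5% of 55293 mouse symbols. Adjusted values subtract the median of 20 bins of intron length. Shares of cells were also computed after thinning each cell to 3000 UMIs. Doublets were scored with Scrublet and kept: 34 mutant and 14 control members scored at least 0.2, of which 8 and 9 were core pericytes.

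Named genes had at least 100 CPM in either sum and 20 UMIs on the higher side. They were the 10 highest and 10 lowest of mutant over control, the same among genes with at most 10 kb of intron, and the 15 highest and 15 lowest of pericytes over smooth muscle by the smaller difference of the libraries. List members could be named as well. A few genes that the rule names are not reported here. Members and lists were chosen with earlier results of these data known, and the core was chosen after the gate sums were seen. The log2 difference was tested on simulated UMI sums of known fold. Thinning and the Poisson interval were checked as well. Software was Python 3.11.15, NumPy 2.4.6, SciPy 1.17.1, pandas 2.3.3, Scanpy 1.11.5, Biopython 1.88 and Matplotlib 3.10.9.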

Additional observations from a re-analysis of the deposited data

Results flagged for a closer look

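Haemoglobin RNA in core pericytes relative to smooth muscle had opposite signs in the libraries, a difference that was not tested. Hba-a1 had a log2 difference of -1.64 in the mutant library and 1.59 in the control library. Hba-a2 had -1.65 and 1.42, and Hbb-bs had -1.79 and 1.32. Hbb-bs was at 59.6 CPM in core pericytes and 231 CPM in smooth muscle of the mutant library, and at 764 and 300 CPM in the control library. The sign in the mutant library depended on cells of high doublet score: without cells scoring at least 0.2 the median over the red cell markers was 0.22 in the mutant core, against -1.64 with them, and the sign was then that of the control library.

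Rat cells, which the comparisons above do not use, also passed the same limits on the rat genes of the same names. They numbered 68 of 79 rat cells in the mutant library (86.1%, exact interval 76.5% to 92.8%) and 129 of 725 in the control library (17.8%, 15.1% to 20.8%). Their median gate sums were 47.5 and 15 UMIs.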

How the results depend on the processing

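With 1 library per group no replicate could be left out. No paired analysis was possible because each group is 1 library. Counts of genes past 2-fold over all members were 1141 higher and 457 lower for mutant over control. Pericytes over smooth muscle gave 238 and 130 in the mutant library and 208 and 182 in the control one. In core pericytes (199 and 309 cells), pericytes over smooth muscle gave 578 and 849 genes in the mutant library and 384 and 673 in the control library. A gate of at least 6 left 375 mutant members and gave 331 lower genes over smooth muscle in the mutant library. Higd1b and Cox4i2 alone left 267 mutant members and gave 513 higher and 682 lower genes in the mutant library, and 403 and 661 in the control library. Without cells past both gates there were 250 lower genes in the mutant library, and 315 higher and 518 lower in the control library. Thinned cells gave 383 and 295 in the control library. CPM over genes with at most 10 kb of intron gave 205 and 240 for mutant over control, then 91 and 61, and 87 and 111, over smooth muscle in mutant and control. Intron adjustment gave 542 higher for mutant over control. A pseudocount of 1 gave 867 lower for mutant over control, then 408 and 296, and 398 and 363, over smooth muscle. A pseudocount of 50 gave 393 and 129, 75 and 35, and 66 and 38. A filter at 50 CPM gave 720 and 299, 153 and 76, and 127 and 89. A smooth muscle gate of at least 20 gave 288 lower in the mutant library and 351 higher in the control library.

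Signs changed over all members for Actc1, S100a9 and 2 lists, and the cause was not tested. Actc1, mutant over control, was -3.08 and came to 1.49 with Higd1b and Cox4i2 alone. Actc1, pericytes over smooth muscle in the control library, was 1.13 and came to -5.63 with that gate, -0.14 without any Epcam, Cdh5 or Pecam1 UMI, -3.74 without cells past both gates, -0.45 with thinned cells and -3.70 in the core. S100a9, mutant over control, was -3.47 and came to 0.078, 0.063 and 0.054 without those UMIs, without cells past both gates and in the core. Alveolar fibroblast markers over smooth muscle in the mutant library had a median of 1.12, and -0.053 with Higd1b and Cox4i2 alone and -0.12 in the core. Red cell markers there had -1.75, and 0.22 without cells of high doublet score. In the core the same list had -1.64, and 0.22 without such cells. Of 1467 single-gene values in the core 422 moved by more than counting error, and of 741 list medians 102 did; of the 1423 called single-gene values, 1423 kept their sign. TMM scaling shifted the comparisons by 0.01, -0.05 and -0.06.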
